A study of Mus musculus with 4 samples.

Results

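The 6 genes described here encode the inhibitor of DNA binding proteins *Id2*, *Id3* and *Id1* and the E proteins *Tcf3* (E2A), *Tcf4* (E2-2) and *Tcf12* (HEB). They were chosen by name, as 6 of the 27998 genes counted, and were followed as raw unique molecular identifiers (UMIs, counted transcript molecules) in blood cells with at least 200 detected genes. The cells came from C57BL/6 mice, 6 to 8 weeks old at the start of the experiments, that carried subcutaneous MC38 colorectal tumors. Blood was taken on day 18 after tumor challenge, and CD3+ T cells were enriched and encapsulated for Chromium 3' sequencing. There was 1 library for each of 4 groups. The Untreated mice received no immunotherapy. The OX40 group received an agonistic anti-OX40 antibody with the TLR9 ligand CpG on day 7. The PDL1 group received a blocking anti-PD-L1 antibody on days 10, 13 and 17. The PDOX group received both regimens. The design text speaks of 4 samples from 4 mice, so each treatment is a single library and no test between treatments was possible. Intervals of levels, shares and ratios below are exact 95% intervals that cover counting error only. Intervals of log2 differences are instead normal approximations from the estimate and SE of the edgeR fit, not adjusted for the number of genes. A level is given as UMIs of a gene per 10000 UMIs of its cells, with mitochondrial, ribosomal and hemoglobin genes left out of the total.

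E proteins are basic helix-loop-helix transcription factors that bind, as pairs, to the short E box motif CANNTG. Id proteins carry the helix-loop-helix but no DNA-binding region, so that an E protein paired with an Id protein cannot bind DNA. In T cells, Id2 is known for its part in effector CD8+ T cells, NK cells and innate lymphoid cells, Id3 for naive and memory T cells and follicular helper cells, and E2A for the B lineage. *Tcf3*, *Tcf4* and *Tcf12* are not the TCF factors of Wnt signalling, among which is *Tcf7*, a factor of naive and memory T cells.

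On GRCm38, the mouse build of the deposited files, *Id2* (ENSMUSG00000020644) lies at chr12:25093799-25096092, *Id3* (ENSMUSG00000007872) at chr4:136143822-136145392 and *Id1* (ENSMUSG00000042745) at chr2:152736251-152737410. *Tcf3* (ENSMUSG00000020167) lies at chr10:80409541-80433976 and *Tcf12* (ENSMUSG00000032228) at chr9:71844252-72111893. E proteins bind the E box. The 250 bases before the start of the 2 most abundant Id genes, from RefSeq on GRCm38.p6, are shown with E boxes in capitals. The window of *Id2* is chr12:25096093-25096342 on the minus strand, and that of *Id3* is chr4:136143572-136143821 on the plus strand.

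Id2: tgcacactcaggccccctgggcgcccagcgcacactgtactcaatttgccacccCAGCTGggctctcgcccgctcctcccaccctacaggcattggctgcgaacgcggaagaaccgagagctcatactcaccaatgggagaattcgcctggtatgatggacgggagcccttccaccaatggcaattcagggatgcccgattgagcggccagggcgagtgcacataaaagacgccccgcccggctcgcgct
Id3: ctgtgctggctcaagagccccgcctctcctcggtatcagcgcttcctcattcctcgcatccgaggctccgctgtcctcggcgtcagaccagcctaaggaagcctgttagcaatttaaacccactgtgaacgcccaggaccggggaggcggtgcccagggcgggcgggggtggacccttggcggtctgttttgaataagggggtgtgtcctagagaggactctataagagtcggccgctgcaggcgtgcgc

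The *Id2* window held 1 match to CANNTG, the E box CAGCTG, 196 bases before the start. The *Id3* window held none. CANNTG reads the same class of sites on both strands, and 66.2% of 32851 promoter windows of the same length held at least 1 match, against 13% that held CAGCTG. These matches describe the letters of the windows, and binding was not measured.

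The libraries held 5434 cells, of which 5299 had at least 200 genes, namely 784 Untreated, 1446 PDL1, 1559 OX40 and 1510 PDOX cells. Total UMIs were 2392650 to 4969885 per library and the median kept cell held 1434.5 to 1618 UMIs. Between 0 and 6 kept barcodes were shared by any pair of libraries, and Scrublet called 28 doublets (0.528% of cells), which were kept. CD8+ T cells (2084 cells) held *Cd8a* or *Cd8b1* and CD4+ T cells (861 cells) held *Cd4*, each with a *Cd3* chain UMI. Naive cells were those with *Ccr7* or *Lef1* and no *S100a4* or *Gzma* UMI, and effector cells the reverse. Cells with UMIs of both pairs, or of neither, were kept apart. The NK (62 cells), B (130 cells) and monocyte (85 cells) gates had no *Cd3* chain UMI by construction, and every NK and B gate held all of its 7 or 6 markers. CD8+ effector cells of the Untreated, PDL1, OX40 and PDOX libraries numbered 7, 38, 98 and 121, and CD4+ effector cells 4, 9, 47 and 107. The Untreated effector gates are therefore very small. Of the 6 genes, *Id2* was by far the most counted with 6045 UMIs in 1780 kept cells. *Tcf12* had 804 UMIs in 729 cells, *Tcf3* 763 in 694, *Id3* 506 in 381, *Tcf4* 150 in 113 and *Id1* 44 in 26.

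*Id2* separated effector from naive cells in both lineages and in every library. In CD8+ naive cells its level was 2.42 UMIs per 10000 in the Untreated library, 1.99 in PDL1, 1.85 in OX40 and 2.88 in PDOX. In CD8+ effector cells it was 18.8, 15.9, 17.5 and 18.7 in the same order. The effector and naive levels did not overlap, and the ratio of effector to naive was 7.75 (95% interval 4.77 to 12.2) in Untreated, 8.0 in PDL1, 9.45 in OX40 and 6.49 in PDOX. In edgeR's quasi-likelihood test with the library as a block, over the 3 libraries with at least 10 cells in both gates, *Id2* was higher in effector cells by 3.08 on the log2 scale (SE 0.14, adjusted p = 5.2e-09, higher in 3 of 3 libraries). In that comparison 825 of 4105 genes were called (20.1%), 11% higher and 9.11% lower in effector cells, and the levels of 36.3% of genes did not overlap.

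In CD4+ naive cells the *Id2* level was 1.02 UMIs per 10000 in Untreated, 2.10 in PDL1, 2.48 in OX40 and 3.51 in PDOX. In CD4+ effector cells it was 19.7 (9 UMIs in 4 cells), 7.44 (14 UMIs in 9 cells), 14.0 and 25.6. Naive and effector levels did not overlap in this lineage either, although the effector values spread more than in CD8+ cells. *Id2* was higher in CD4+ effector cells by 2.61 on the log2 scale (SE 0.26, edgeR adjusted p = 6.1e-22, higher in 4 of 4 libraries). Since edgeR pools variability over genes, this p-value does not measure the spread of *Id2* alone over the libraries. Here 275 of 2445 genes were called (11.2%), 4.95% higher and 6.3% lower, the levels of 14.3% did not overlap, and libraries with as few as 3 cells in a gate were admitted. The effector-to-naive difference of *Id2* was not distinguishable between the lineages, with a CD8 minus CD4 difference of 0.25 on the log2 scale (95% interval -0.29 to 0.78, edgeR adjusted p = 0.94). Of 4237 genes, 11 (0.26%) differed between lineages in that test. *Id2*, *Id3*, *Tcf3* and *Tcf12* were not among them, and *Id1* and *Tcf4* were not tested. On simulated counts this test recovered 10.5% of genes changed by a log2 value of 1, so a gene not called may still differ.

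**Figure D1:**
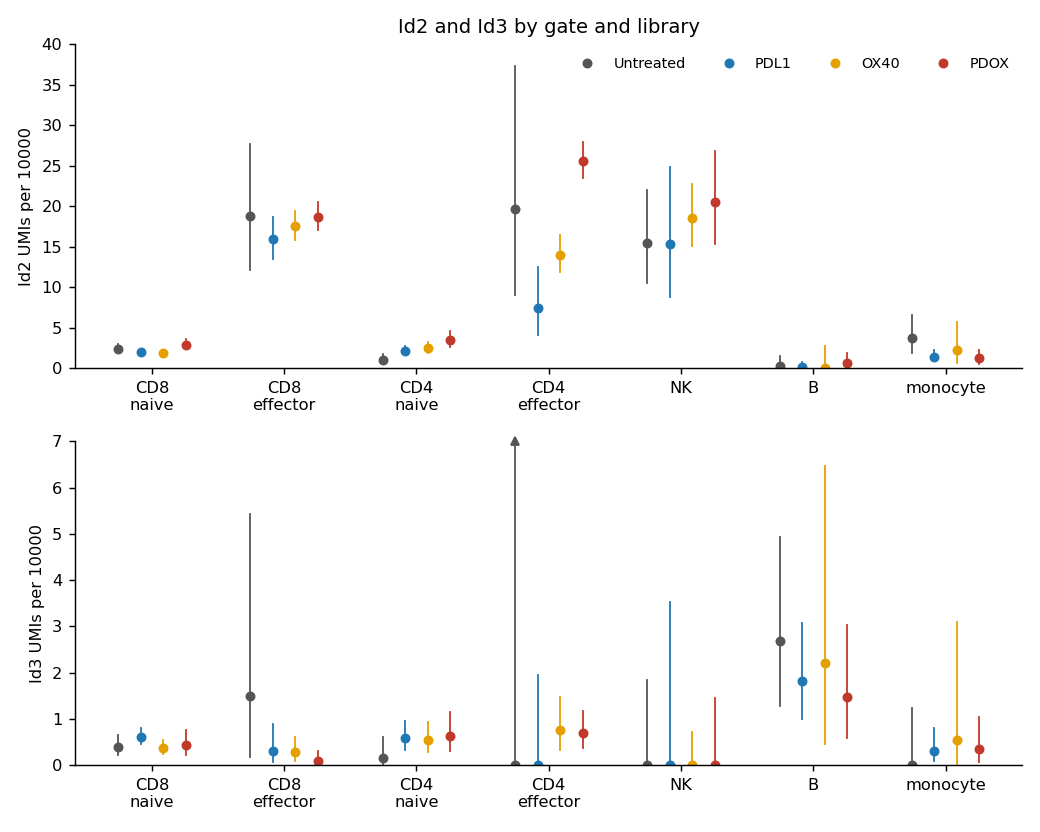
Level of *Id2* (top) and *Id3* (bottom) in UMIs per 10000 UMIs, by gate along the x axis and by library in color; points are levels, lines exact Poisson 95% intervals, and a triangle marks an interval that runs past the axis. *Id2* stands at 15.3 to 20.5 in the NK gate and 15.9 to 18.8 in CD8+ effector cells, and near 0 in the B gate, while *Id3* is highest in the B gate among the gates drawn.

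The number of *Id2* molecules per cell moved with the share of positive cells. *Id2* was detected in 80.7% of CD8+ effector cells against 22.6% of CD8+ naive cells, and in 83.2% of CD4+ effector cells against 19.3% of CD4+ naive cells, at median depths of 1924, 1662, 1911 and 1528 UMIs. After thinning each cell to 1000 UMIs the shares were 70.2%, 15.1%, 77.3% and 14.3%. In the B gate, where little *Id2* is known to be made, 5 of 130 cells (3.85%, median 1203.5 UMIs; 3.0% after thinning) had an *Id2* UMI. The naive shares stood above this. At least 5 *Id2* UMIs were found in 39 of 121 CD8+ effector and 43 of 107 CD4+ effector cells of PDOX, but in 1 of 173 CD8+ naive and 3 of 108 CD4+ naive cells of that library.

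Within CD8+ effector cells no pair of libraries differed in *Id2* beyond counting error, and the PDOX to Untreated ratio was 0.997 (95% interval 0.667 to 1.56). Over all CD8+ T cells, in contrast, the *Id2* level was 3.10 UMIs per 10000 in Untreated, 4.81 in PDL1, 5.69 in OX40 and 11.0 in PDOX. The share of CD8+ T cells in the effector gate was 2.20%, 5.91%, 14.6% and 26.8% in the same order. When each library's own gate levels were weighted by the share of Untreated UMIs in each gate, the CD8+ level became 3.10, 3.13, 2.93 and 4.72, and with shares of cells as weights 3.09, 2.93, 2.80 and 4.51. These weighted values carry no interval. Of the PDOX value of 4.72, 0.970 came from cells with UMIs of both marker pairs, which gave 0.0403 in Untreated, where the gate holds 2 *Id2* UMIs in 14 cells. With that gate left out the values were 3.25, 2.57, 2.62 and 3.98. CD8+ naive cells of PDOX had an *Id2* ratio of 1.45 to those of PDL1 (95% interval 1.11 to 1.90) and of 1.56 to those of OX40 (1.17 to 2.07), but 17 of their 85 *Id2* UMIs lay in 1 cell. Without that cell the ratios were 1.22 (0.907 to 1.63) and 1.31 (0.958 to 1.77), and both intervals included 1, as did the one against Untreated with all cells.

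In CD4+ T cells the *Id2* level was 2.31 UMIs per 10000 in Untreated, 2.36 in PDL1, 7.73 in OX40 and 16.9 in PDOX, with effector shares of 4.08%, 4.59%, 17.7% and 35.5%. With the Untreated shares of UMIs per gate the level became 2.31, 2.15, 4.16 and 5.48. Of the PDOX value, 1.35 came from cells with UMIs of both marker pairs. These gave 0.136 in Untreated, where the gate holds 2 *Id2* UMIs in 4 cells. With that gate left out the values were 2.31, 2.08, 3.53 and 4.39. Levels inside the gates also differed. CD4+ effector cells of PDOX had 1.83 times the *Id2* level of those of OX40 (95% interval 1.52 to 2.22) and 3.44 times that of PDL1 (2.03 to 6.34). Without the PDOX cell of most *Id2* UMIs these ratios were 1.78 and 3.34, with intervals above 1. Against Untreated the CD4+ effector ratio of PDOX was 1.30, with an interval that included 1. CD4+ naive cells of PDOX had 3.43 times the level of Untreated ones (1.82 to 7.02; 2.79 without 1 PDOX cell of 11 UMIs), where the Untreated value rests on 12 UMIs. Against PDL1 and OX40 the CD4+ naive ratios of PDOX were 1.67 and 1.42. The interval against OX40 included 1, and without the same PDOX cell so did that against PDL1 (1.36, 0.893 to 2.05). These ratios set 1 library against another and carry no replicate error.

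**Figure D2:**
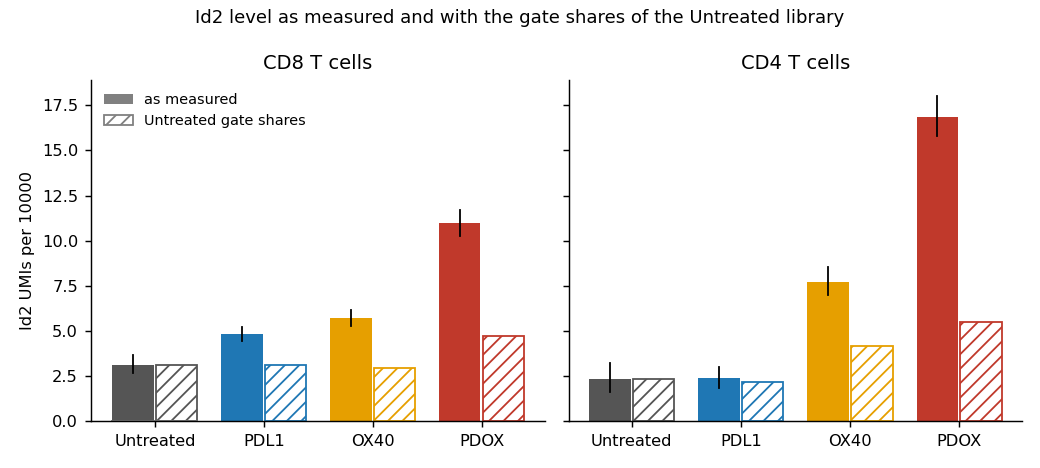
*Id2* UMIs per 10000 UMIs in all CD8+ (left) and CD4+ (right) T cells of each library; solid bars are measured levels with exact Poisson 95% intervals, and hatched bars, without intervals, the levels recomputed with the Untreated shares of UMIs per gate. The PDOX bars fall from 11.0 to 4.72 in CD8+ and from 16.9 to 5.48 in CD4+ T cells.

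CD8+ T cells that carried UMIs of both marker pairs lay between naive and effector cells for *Id2* in the treated libraries. Their *Id2* level was 0.677 UMIs per 10000 in Untreated (2 UMIs in 14 cells), 11.9 in PDL1, 7.96 in OX40 and 16.3 in PDOX. CD8+ T cells with neither pair had 4.75, 3.19, 3.85 and 6.98. Among CD4+ T cells the level of cells with both pairs was 2.26 (2 UMIs), 3.17 (4 UMIs), 14.0 and 22.5, which in OX40 was no lower than that of effector cells. T cells with a *Cd3* chain but no *Cd4* or *Cd8* UMI (1568 cells) were likewise highest in PDOX, at 2.53, 2.32, 5.91 and 11.3 UMIs per 10000. Among CD8+ effector cells, those with *Gzma*, encoding granzyme A, and those with *S100a4* alone had *Id2* levels of 16.7 and 18.8 over all libraries. Their *Id2* difference of -0.18 on the log2 scale did not pass the test (SE 0.15, edgeR adjusted p = 0.97), in a comparison that called 18 of 1548 genes (1.16%).

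*Foxp3*, the defining transcription factor of regulatory T cells, was detected in 30 CD4+ T cells (3 Untreated, 3 PDL1, 9 OX40 and 15 PDOX). Their *Id2* level was 3.55 UMIs per 10000 against 9.69 in the other CD4+ T cells, a ratio of 0.366 (95% interval 0.238 to 0.539). The ratio was 0.383 in OX40 and 0.281 in PDOX, with both intervals below 1, and could not be resolved in the other libraries.

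NK cells, which depend on Id2 for their development, held as much *Id2* as CD8+ effector cells. Their level was 15.5 UMIs per 10000 in Untreated, 15.3 in PDL1, 18.6 in OX40 and 20.5 in PDOX, and the ratio to CD8+ effector cells over all libraries was 1.02 (95% interval 0.870 to 1.19). Against all CD8+ and CD4+ T cells *Id2* was higher in the NK gate by 1.34 on the log2 scale (SE 0.23, edgeR adjusted p = 1.8e-07, 3 of 3 libraries), in a comparison that called 442 of 5045 genes (8.76%). The call was lost without the OX40 library (1.20) and without the library block (1.17). In CD8+ effector cells the 7 NK markers summed to 12.0, 5.77, 2.89 and 2.24 UMIs per 10000 in Untreated, PDL1, OX40 and PDOX, with 5 or 6 of the 7 detected and *Klra4* at 0 in all but PDOX, against 69.1 to 92.0 in the NK gate and 0.131 to 0.339 in CD8+ naive cells. The NK marker sum was thus lower in libraries with similar effector *Id2*, and its part in the *Id2* difference was not tested. In CD4+ effector cells they summed to at most 0.532.

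B cells were the opposite case. *Id2* was at 0.268, 0.130, 0 and 0.633 UMIs per 10000 in Untreated, PDL1, OX40 and PDOX, 5 UMIs in all, and was lower than in T cells by 4.46 on the log2 scale (SE 0.39, edgeR adjusted p = 3.7e-12, lower in 3 of 3 libraries). That comparison called 814 of 5101 genes (16%), 7.04% as higher and 8.92% as lower in B cells. Monocytes had *Id2* levels of 3.69, 1.44, 2.22 and 1.19, and their *Id2* was lower than that of T cells as a whole (log2 difference -1.69, SE 0.29, edgeR adjusted p = 1.0e-07), but lower in only 3 of 4 libraries. Of 5329 genes, 1504 (28.2%) were called between monocytes and T cells.

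*Id3* was sparse and ordered the gates differently. In CD8+ naive cells its level was 0.394 UMIs per 10000 in Untreated, 0.622 in PDL1, 0.374 in OX40 and 0.441 in PDOX. In CD8+ effector cells it was 1.5 (2 UMIs), 0.309 (3 UMIs), 0.284 (6 UMIs) and 0.0847 (2 UMIs). The effector level was the lower one in the 3 treated libraries, and the Untreated value rests on 7 cells. Over all libraries the effector to naive ratio was 0.484 (95% interval 0.249 to 0.864), but with no filter on low counts the edgeR difference of *Id3*, -1.06 on the log2 scale (SE 0.45), did not pass (adjusted p = 0.15), and with gates that admit cells holding both marker pairs it was -0.03.

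In CD4+ T cells *Id3* did not separate the gates. Its level in naive cells was 0.171 (2 UMIs), 0.585, 0.546 and 0.627 UMIs per 10000, and in effector cells it was 0.755 in OX40 and 0.696 in PDOX, with 0 UMIs in the 4 Untreated and the 9 PDL1 cells. The effector to naive ratio over all libraries was 1.28 (95% interval 0.727 to 2.21). The difference of *Id3* between the lineages was -1.30 on the log2 scale (SE 0.61), which did not pass over all genes (edgeR adjusted p = 0.67). In PDOX, CD8+ effector cells held 2 *Id3* UMIs in 121 cells and CD4+ effector cells 14 in 107, a ratio of levels of 0.122 (95% interval 0.0134 to 0.530).

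Between libraries, the *Id3* level of all CD8+ T cells was 0.423 UMIs per 10000 in Untreated, 0.606 in PDL1, 0.384 in OX40 and 0.309 in PDOX. PDOX lay below PDL1 (ratio 0.511, 95% interval 0.311 to 0.813), as did OX40 (0.635, 0.428 to 0.930), although without 1 PDL1 cell of 6 *Id3* UMIs the OX40 interval included 1 (0.688, 0.462 to 1.02), and the PDOX ratio to Untreated, 0.732, had an interval of 0.393 to 1.37. In CD4+ T cells the PDOX to Untreated ratio was 5.23 (1.35 to 44.8), and that of OX40 to Untreated 4.46 (1.13 to 38.6), with only 2 *Id3* UMIs in the 98 Untreated CD4+ cells. No other pair of libraries differed in *Id3* beyond counting error in all CD8+ or all CD4+ T cells.

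Over all libraries *Id3* was highest in the B gate, and the NK gate had no *Id3* UMI. Over the 107009 UMIs of 62 NK cells, a floor of 3 counts stands at 0.280 UMIs per 10000 and at 4.84% of cells with a UMI. These floors are not upper limits, and they do not limit the share of cells that express the gene. In the B gate the *Id3* level was 2.68 UMIs per 10000 in Untreated, 1.83 in PDL1, 2.21 in OX40 and 1.48 in PDOX, 34 UMIs in 25 cells, and every B value lay above the all-CD8+ and all-CD4+ values of its library. In PDOX the 28 CD4+ T cells with neither marker pair had a higher level, 2.37 (8 UMIs). *Id3* was higher in B than in T cells by 1.94 on the log2 scale (SE 0.39, edgeR adjusted p = 2.2e-04, 3 of 3 libraries). Without the PDL1 library, which holds 57 of the 130 B cells, its adjusted p was 0.070 by edgeR. The shares of cells with an *Id3* UMI were 19.2% in B, 6.24% in CD8+, 7.78% in CD4+, 5.88% in monocyte and 0% in NK gates, at median depths of 1203.5, 1666.5, 1613, 2487 and 1693 UMIs. The part of free RNA in these shares was not tested.

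The balance of the 2 genes was read only between gates, since counting efficiency can differ between genes. There were 6.13, 3.19, 4.96 and 6.54 *Id2* UMIs per *Id3* UMI in CD8+ naive cells of Untreated, PDL1, OX40 and PDOX. CD8+ effector cells had 12.5, 51.3, 61.7 and 221, each resting on 2 to 6 *Id3* UMIs. CD4+ naive cells had 6.0, 3.6, 4.54 and 5.60, close to the CD8+ naive values, and CD4+ effector cells 18.5 in OX40 and 36.8 in PDOX, with lower bounds of 1.97 in Untreated and 3.32 in PDL1, where *Id3* was not counted. The B gate was the only one with fewer *Id2* than *Id3* UMIs, at 0.147 (95% interval 0.0449 to 0.378) over all libraries.

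**Figure D3:**
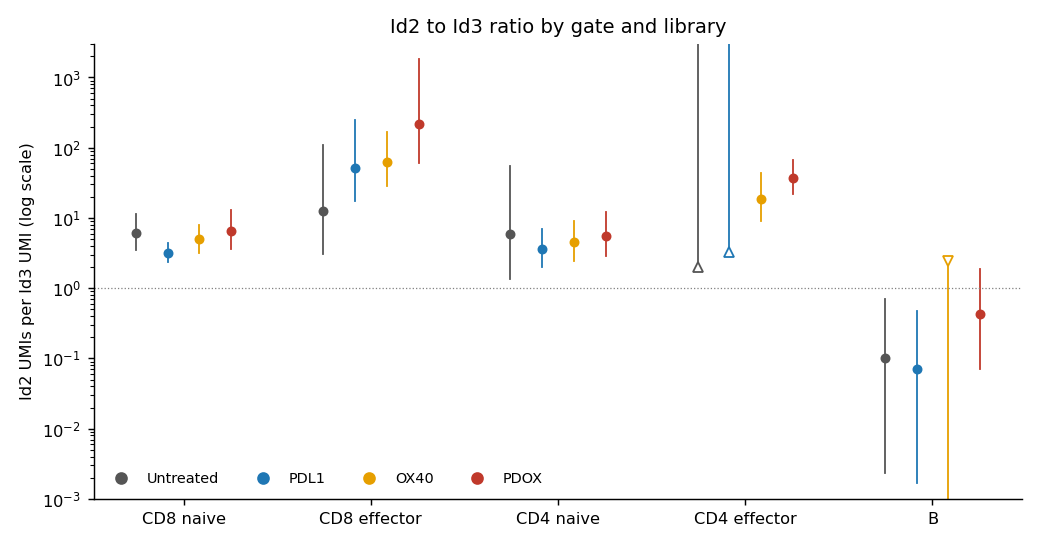
*Id2* UMIs per *Id3* UMI (log scale) by gate along the x axis and by library in color, with exact 95% intervals; open triangles pointing up are lower bounds where *Id3* had 0 UMIs, the one pointing down an upper bound where *Id2* had 0, and the dotted line marks equal counts. CD8+ naive cells lie at 3.19 to 6.54, CD8+ effector cells at 12.5 to 221 and the measured B values below 1.

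In CD8+ T cells 43 cells held both *Id2* and *Id3* where independent draws within each library would give 42.9, and in CD4+ T cells 27 against 28.4. The libraries did not go one way. In CD8+ T cells the counts were 4, 18, 15 and 6 in Untreated, PDL1, OX40 and PDOX against 4.25, 15.9, 11.7 and 11.1, so that PDOX held fewer than independent draws give and PDL1 and OX40 more. The CD4+ counts were 0, 6, 6 and 15 against 0.367, 3.59, 7.37 and 17.1. Cells with both were deeper (median 2821 UMIs in CD8+ T cells, against 1846 in *Id2*-only cells). After thinning to 1000 UMIs, 11 CD8+ cells held both against 16.5 if independent, and 10 CD4+ cells against 12.9. By library the thinned CD8+ counts were 2, 4, 3 and 2 against 1.53, 5.91, 4.99 and 4.06, so the count was lower in the 3 treated libraries and not in Untreated.

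Cells with only 1 of the 2 genes were compared by gate within each library, since the libraries differ in their gate shares and give unequal numbers of such cells. Of the CD8+ cells with *Id2* only (71 Untreated, 168 PDL1, 210 OX40 and 221 PDOX), 78.9%, 56.0%, 36.2% and 21.3% were naive and 7.04%, 17.3%, 36.2% and 43.0% effector. Of those with *Id3* only (14, 37, 20 and 16), 78.6%, 91.9%, 65% and 68.8% were naive and 7.14%, 0%, 10% and 0% effector. The naive share was higher and the effector share lower among *Id3*-only cells in PDL1, OX40 and PDOX, while in Untreated both kinds of cells had nearly the same shares. These differences were not tested. The effector shares of *Id3*-only cells rest on at most 2 cells in each library.

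Among CD4+ T cells the naive share was 55.6%, 76.3%, 34.8% and 12.3% among 18, 38, 92 and 162 *Id2*-only cells, and 90%, 57.1% and 64.3% among the 10, 14 and 14 *Id3*-only cells of PDL1, OX40 and PDOX. Untreated had 2 *Id3*-only CD4+ cells, both naive. The effector share was 16.7%, 15.8%, 34.8% and 54.3% among *Id2*-only cells, and 0%, 14.3% and 14.3% among the *Id3*-only cells of the 3 treated libraries. CD4+ cells with both genes were naive in 5 of 6 cells in PDL1, 0 of 6 in OX40 and 1 of 15 in PDOX.

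**Figure D4:**
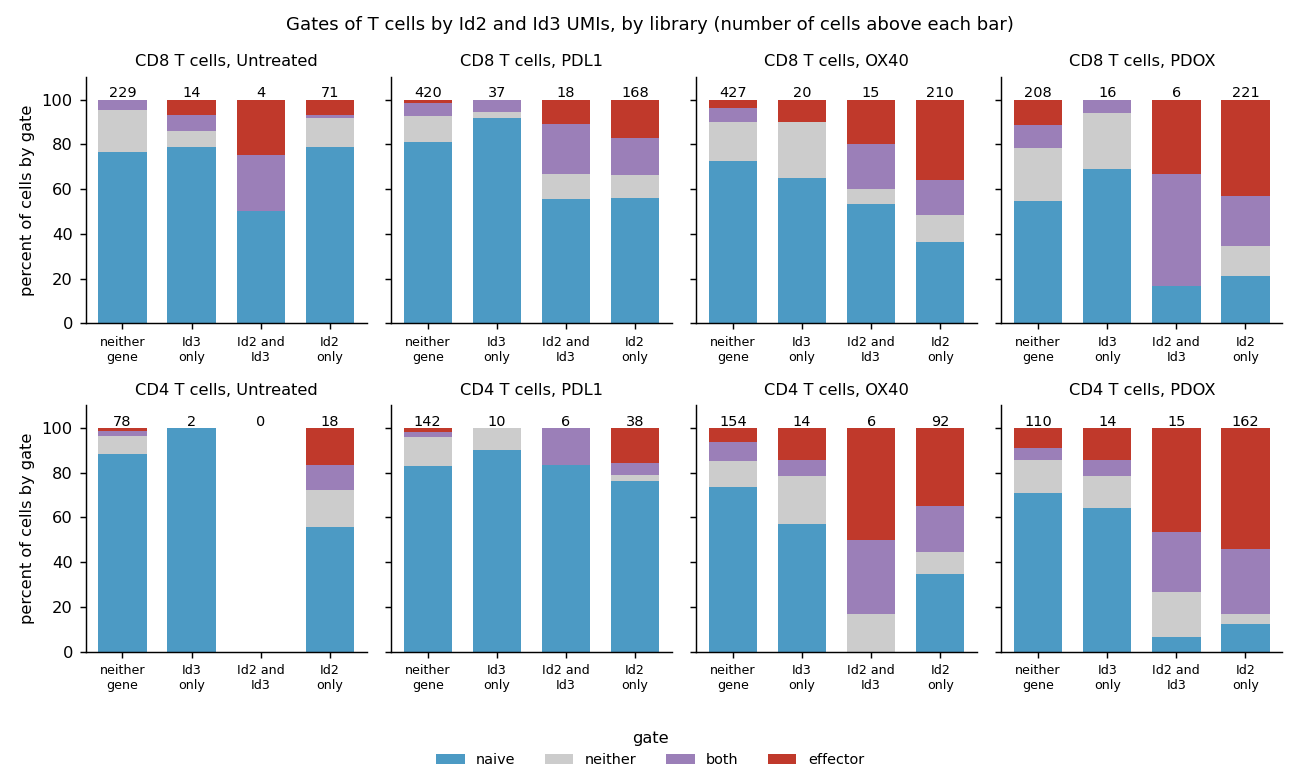
Percent of CD8+ (top) and CD4+ (bottom) T cells in the naive, neither, both and effector gates, 1 panel per library, by whether the cell held UMIs of neither gene, of *Id3* only, of both genes or of *Id2* only; the number of cells stands above each bar. The effector share of *Id2*-only CD8+ cells is 7.04% in Untreated and 43.0% in PDOX, and that of *Id3*-only cells stays at 10% or below.

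Between *Id2*-only and *Id3*-only CD8+ T cells, 40 of 1706 genes were called (2.34%), of which 32 (1.88%) were higher in *Id2*-only and 8 (0.469%) in *Id3*-only cells. The 5 genes with the largest increases among those with the same direction in every library were *Gzmb*, which encodes granzyme B, *Gzma* (log2 difference 6.09), *S100a6* (3.95), the chemokine receptor gene *Cxcr6* (3.16) and the chemokine gene *Ccl5* (2.67). *Gzmb* had 672 UMIs in *Id2*-only and 0 in *Id3*-only cells, at least 25.3-fold higher against a floor of 3 UMIs over the group. The largest decreases were those of *Zfp36l1* (-0.97), *Mrpl23* (-0.95), *Satb1* (-0.86), *Rgs10* (-0.80) and *Gm26740* (-0.79). *Tcf7*, a factor of naive and memory T cells, was also lower in *Id2*-only cells (-0.92). When the comparison was restricted to naive cells, 0 of 1356 genes passed with edgeR and 55 had an unadjusted p under 0.05. In CD4+ T cells 16 of 913 genes were called (1.75%). *Ifitm1* and *Lgals3*, which encodes galectin-3, had 454 and 379 UMIs in *Id2*-only and 0 in *Id3*-only cells, at least 17-fold and 14.2-fold higher. *Ccl5* (6.78), *Nkg7* (4.2) and *S100a6* (3.20) were also higher in *Id2*-only cells, and *Ikzf2* (-1.93), which encodes Helios, and *Bcl2* (-1.25), a survival factor, were lower. Neither *Tcf3* nor *Tcf12* was called between *Id2*-only and *Id3*-only CD8+ cells, with log2 differences of -0.10 (SE 0.37, edgeR adjusted p = 0.94) and -0.76 (SE 0.37, adjusted p = 0.37).

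*Id1* was nearly absent from T cells. It had 2 UMIs in 2084 CD8+ and 1 in 861 CD4+ T cells, and 3 in the 1568 T cells without a *Cd4* or *Cd8* UMI. The NK and B gates had none. Of its 44 UMIs, 35 (79.5%) lay in cells outside all gates. Among ungated cells, 16 held the basophil markers *Mcpt8* or *Prss34*, a group chosen after *Id1* had been seen in such cells (1 Untreated, 0 PDL1, 2 OX40 and 13 PDOX cells). They carried 19 *Id1* UMIs in 8 cells, or 8.06 UMIs per 10000 (95% interval 4.85 to 12.6), and their *Id2* level was 1.27. The 4 of them with both markers, all from PDOX, held 1 *Id1* UMI, or 2.03 per 10000 (0.0515 to 11.3).

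Among the E protein genes, *Tcf3* varied little over T cells. Its level in CD8+ naive cells was 1.03, 0.849, 0.942 and 0.848 UMIs per 10000 in Untreated, PDL1, OX40 and PDOX, and in CD8+ effector cells 0.750, 1.03, 0.947 and 1.06. The log2 difference of *Tcf3* between these gates was 0.28 (95% interval -0.17 to 0.73, edgeR adjusted p = 0.44). In CD4+ naive cells the level was 1.19, 1.09, 0.756 and 0.940, and in effector cells 2.19 (1 UMI), 0, 0.755 and 1.14, with a log2 difference of 0.01 (95% interval -0.74 to 0.76). These approximate intervals leave out the size of the *Id2* difference in both lineages. In the B gate *Tcf3* was at 0.803, 1.96, 2.21 and 2.11, which did not pass against T cells (log2 difference 0.78, SE 0.34, edgeR adjusted p = 0.14). In monocytes *Tcf3* was lower than in T cells by 1.72 on the log2 scale (a difference of -1.72, SE 0.55, edgeR adjusted p = 0.0090), a call lost without the Untreated (-1.55) or the PDOX library (-1.67).

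*Tcf12* was the E protein gene that was lower in effector cells. Its level in CD8+ naive cells was 1.08 UMIs per 10000 in Untreated, 1.20 in PDL1, 1.39 in OX40 and 1.32 in PDOX. In CD8+ effector cells it was 1.5 (2 UMIs), 0.928, 0.711 and 0.508, below the naive values in the 3 treated libraries. *Tcf12* fell by 0.85 on the log2 scale (SE 0.25, edgeR adjusted p = 0.030, lower in 3 of 3 libraries). The call was near the threshold and held in 9 of 15 settings, the one reported included. It was lost with DESeq2 (adjusted p = 0.21), without the OX40 (0.13) or PDOX library (0.25), after thinning (0.20), with gates that admit cells holding both marker pairs (0.16) and without cells of high doublet score (0.05002). In CD4+ T cells the level was 0.939, 0.974, 0.882 and 1.0 in naive and 0, 0.532, 0.377 and 0.497 in effector cells. The CD4+ difference, -1.07 on the log2 scale (SE 0.46), pointed the same way in 4 of 4 libraries and did not pass (edgeR adjusted p = 0.13). Over all CD8+ T cells *Tcf12* was lower in PDOX than in Untreated (ratio 0.673, 95% interval 0.471 to 0.963), and with the Untreated shares of UMIs per gate the levels were 1.23 and 1.27. Monocytes held little *Tcf12* (5 UMIs in 85 cells), which was lower than in T cells by 2.21 on the log2 scale (a difference of -2.21, SE 0.60, edgeR adjusted p = 0.0014, lower in 4 of 4 libraries).

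*Tcf4* (ENSMUSG00000053477, chr18:69343429-69687967) was counted mostly in cells other than T cells. It had 24 UMIs in CD8+ and 8 in CD4+ T cells, 20 in T cells without a *Cd4* or *Cd8* UMI and 1 in those with both. Of the 13 UMIs in Untreated CD8+ T cells, 7 came from 1 cell that also held 1 NK, 1 B and 1 monocyte marker. In the B gate its level was 2.41 UMIs per 10000 in Untreated, 1.17 in PDL1, 5.16 in OX40 and 1.69 in PDOX, where the OX40 value is 7 UMIs of 1 cell. *Tcf4* was higher in B than in T cells by 4.36 on the log2 scale (SE 0.53, edgeR adjusted p = 1.8e-08, 3 of 3 libraries, OX40 not among them). Of the main fits *Tcf4* passed the count filter in this one alone, through the B gate where it was high. Monocytes had 16 UMIs, at 0.622 per 10000. Another 44 of its 150 UMIs (29.3%) lay outside all gates, of which 7 were in 1 cell with 2 monocyte markers and 1 plasmacytoid dendritic cell marker.

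**Figure D5:**
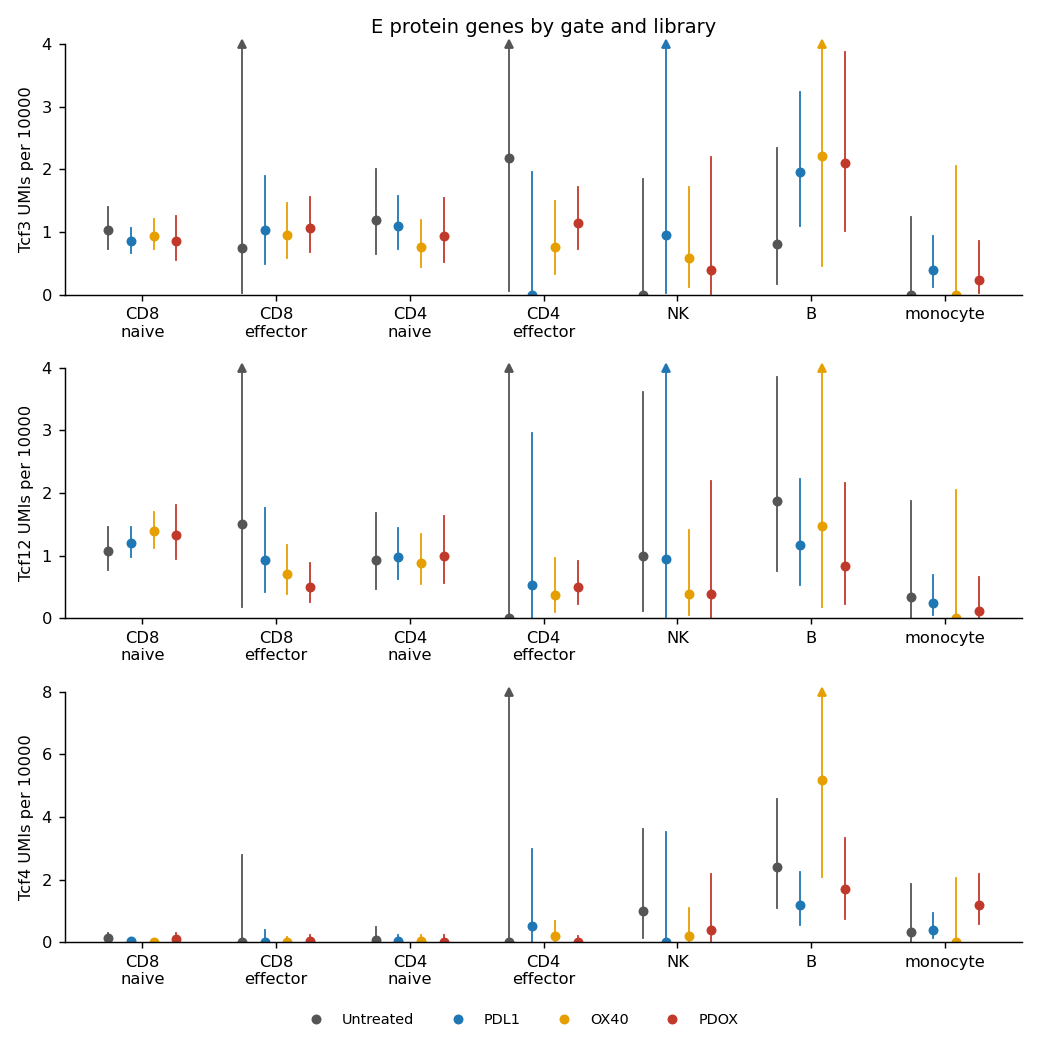
Level of *Tcf3*, *Tcf12* and *Tcf4* in UMIs per 10000 UMIs (y axes differ) by gate along the x axis and by library in color; points are levels, lines exact Poisson 95% intervals and triangles mark intervals that run past the axis. *Tcf12* lies at 1.08 to 1.39 in CD8+ naive cells and at 0.508 to 0.928 in the effector cells of the 3 treated libraries, and *Tcf4* is near 0 in T cells.

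With *Id2*, *Id3* and *Id1* set over *Tcf3*, *Tcf4* and *Tcf12*, there were 1.19 Id UMIs per E protein UMI in CD8+ naive and 1.46 in CD4+ naive cells. Libraries ranged from 0.955 (OX40) to 1.48 (PDOX) in CD8+ naive and from 0.538 (Untreated) to 2.13 (PDOX) in CD4+ naive cells. In the lowest library of each, E protein UMIs were thus the more numerous. The value was 10.6 in CD8+ effector, 14.2 in CD4+ effector and 12.9 in NK cells, and 0.453 in B cells, where E protein UMIs outnumbered Id UMIs. The E protein sum itself was 2.21 UMIs per 10000 in CD8+ naive, 1.70 in CD8+ effector, 1.96 in CD4+ naive, 1.51 in CD4+ effector and 4.91 in B cells. By library the Id to E ratio of CD8+ T cells was 1.36, 2.62, 2.96 and 6.01 in Untreated, PDL1, OX40 and PDOX, and that of CD4+ T cells 1.33, 1.48, 5.47 and 10.8. The difference between T cell gates was thus carried by *Id2*.

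Other genes of the same network were followed as lists, whose members were chosen with earlier results of these data known. Of 12 further helix-loop-helix partners and corepressors only *Bhlhe40*, a repressor induced on T cell activation, was counted well enough for the CD8+ effector comparison, and it rose by 4.82 on the log2 scale (SE 0.47). Of 14 naive and memory T cell genes 11 were tested in CD8+ T cells. The 10 that fell included *Satb1* (-2.45), *Tcf7* (-2.12) and *Bcl2* (-1.63), and *Eomes* (1.38) rose. The list's median was -1.35 against -0.01 over all genes, of which 9.11% fell and 11% rose. Of 14 effector genes 12 were tested and 10 rose, among them *Klrg1* (5.46), *Zeb2* (4.23) and *Tbx21* (3.45), which encodes T-bet, with a median of 3.73. *Runx3* (0.47) and *Gata3* (0.47) did not pass. Naive CD8+ cells held only 6 UMIs of *Bhlhe40*, 7 of *Klrg1*, 9 of *Tbx21* and 11 of *Gzmb*. Such genes passed the count filter through the effector gate, so the number that rose and the median are no test of the list. In CD4+ T cells 7 of 10 tested naive and memory genes fell and 6 of 6 tested effector genes rose (medians -1.51 and 3.0, against -0.04 over all genes). Of all genes in that comparison 6.3% fell and 4.95% rose. The same limit holds there, with 4 *Gzmb* UMIs in CD4+ naive cells.

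Genes described as E protein targets did not move as 1 group. Of 19, 6 were counted well enough in the CD8+ comparison, where 11% of all genes rose and 9.11% fell. *Foxo1* (-1.35), a transcription factor of naive cells, and *Il7r* (-1.36), the interleukin-7 receptor, fell, *Runx2* (1.84) rose, and *Socs1* (-0.35), *Socs3* (-0.63) and *Notch1* (0.32) did not pass, with a list median of -0.49. *Foxo1* and *Il7r* are also on the naive and memory list. Both fell in CD4+ effector cells as well (-1.09 and -0.81), where only these 2 were tested. In B cells 9 targets were tested, in a comparison that called 7.04% of all genes as higher and 8.92% as lower. Of these targets *Foxo1* (-8.3e-04) and *Socs3* (-2.11) did not pass. E protein activity itself was not tested. *Ebf1* (9.90), *Spib* (7.22), *Pax5* (7.07), *Irf8* (4.78) and *Cxcr5* (3.67) were higher than in T cells, and *Il7r* (-5.28) and *Notch1* (-2.48) lower. The B cells held 2 UMIs each of these last genes, with B to T ratios of 0.0266 (95% interval 0.00322 to 0.0962) and 0.187 (0.0225 to 0.684). T cells held 7 UMIs of *Ebf1*, 9 of *Spib* and 6 of *Pax5*, so these genes passed the count filter through the B gate. Among 10 genes known to act upstream of Id genes, *Smad7*, an inhibitor in TGF-beta signalling, fell in CD8+ (-1.35) and CD4+ (-1.09) effector cells. The other tested members, *Nfatc1* and the TGF-beta receptor gene *Tgfbr2*, passed in neither lineage.

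The genes that moved most between the gates were largely outside this network. In CD8+ effector cells the largest increases were those of *Gzmb* (7.32), *Tktl1* (6.08), the chemokine *Ccl3* (5.72), *Klrg1* (5.46) and *Gm4208* (5.43), and the largest decreases those of *Gm43698* (-5.62), the chemokine receptor *Ccr9* (-5.23), *Treml2* (-4.66), *Tmem108* (-3.59) and *Igfbp4* (-3.48). In CD4+ effector cells they were *Ccl5* (5.69), *Klrk1* (NKG2D, 4.55), *Lgals3* (4.45), *Nkg7* (4.40) and *Gna15* (4.24), and *Igfbp4* (-6.83), *Pdlim4* (-5.23), *Ly6c1* (-4.84), *Dapl1* (-4.30) and *Ssbp2* (-4.00). Several of these rest on few UMIs in one gate. Effector cells held 1 UMI each of *Gm43698*, *Ccr9* and *Treml2* in CD8+ T cells, with effector to naive ratios of 0.0157 (95% interval 4e-04 to 0.0887), 0.0179 (4.5e-04 to 0.101) and 0.0254 (6.4e-04 to 0.144). Naive CD8+ cells held 1 UMI of *Tktl1* and 2 of *Gm4208*, with ratios of 99.2 (16.5 to 4046) and 47.9 (12.1 to 415). In CD4+ effector cells *Igfbp4* and *Ly6c1* had 3 UMIs, *Ssbp2* 2 and *Pdlim4* 1, with ratios of 0.00815 (0.00168 to 0.0239), 0.0338 (0.00692 to 0.1002), 0.0476 (0.00569 to 0.177) and 0.0243 (6.1e-04 to 0.139). The fitted *Id2* differences of 3.08 and 2.61 were smaller than all fitted differences named here.

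Over 27 library and gate profiles with at least 10000 UMIs, the genes whose log2 levels followed *Id2* most closely among 3526 genes were *S100a13* (Pearson's r = 0.953), *Ctsd* (0.897), *H2afz* (0.895), *Rpa2* (0.877) and *Lgals1* (0.866). Those nearest to *Id3* were *Vars* (0.853), *Cebpz* (0.820), *Fchsd2* (0.811), *Ktn1* (0.765) and *Stap1* (0.747). *Tcf12* was followed by *Gimap6* (0.868), *Ablim1* (0.848), *Tgfbr2* (0.833), *Cmah* (0.821) and *Snrpd2* (0.820), and *Tcf3* by *Usp9x* (0.862), *Paics* (0.860), *Gpatch8* (0.806), *Cbx1* (0.80) and *Rab11fip2* (0.797). The r between *Id2* and *Id3* was -0.611. The profiles share libraries and differ widely in depth, so these values describe likeness only.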

How the data were processed

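Libraries were made with the Chromium 3' v2 kit. The authors deposited whole-number UMI counts per gene and cell, and their software list names Cell Ranger. The submitters' processing notes name the mm10 build and Seurat version 2. Counts were used as deposited. Cells with at least 200 genes were gated by marker UMIs, and UMIs were summed per library and gate. Gate pairs were compared with edgeR 4.0.16 in R 4.3.3 (quasi-likelihood test, TMM, filterByExpr, library as block, Benjamini-Hochberg adjusted p under 0.05). The 4 libraries, each of another treatment, served as replicates. edgeR pools variability over genes, so a p-value does not measure only the spread of a single gene's gate difference over the libraries. Genes that set a gate were not tested. Libraries entered with at least 10 cells per gate. For CD4+ effector against naive, the lineage difference and monocytes too few libraries passed, and a limit of 3 cells, added after seeing the data, was used. Likeness used log2(UMIs per 10000 + 0.1). The 5 largest called changes in each direction that held in every library are named, and the 5 most alike genes. The genes, gates and lists were chosen with earlier results of these data known. On simulated counts with 200 genes changed by a log2 value of 1, the CD8+ effector test (4105 genes) recovered 50% and the NK test (5045 genes) 1.5%. The lineage difference test (4237 genes) recovered 10.5%. DESeq2 1.42.0, other filters, thinning to 1000 UMIs, wider gates and leaving out libraries were tried as alternatives. Ratios between libraries without the cell of most UMIs, and weights by shares of cells, were added after seeing the data.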

Additional observations from a re-analysis of the deposited data

Results flagged for a closer look

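The effector-to-naive difference itself differed between CD8+ and CD4+ T cells for 11 genes by the interaction test in edgeR (adjusted p under 0.05). These were *Igfbp4* (3.48 on the log2 scale, CD8 minus CD4), *Ptms* (1.85), *Itgae* (-5.48), *Lcn4* (-5.05), *Rgcc* (-2.96), *Ly6c2* (-2.76), *Nkg7* (-2.54), *Cxcr6* (-2.52), *Erdr1* (-1.83), *Glipr2* (-1.43) and *Dnajc15* (-1.26). *Id2* (0.25, 95% interval -0.29 to 0.78), *Id3* (-1.30, -2.50 to -0.10), *Tcf3* (0.28, -0.53 to 1.10) and *Tcf12* (0.29, -0.70 to 1.27) were not among them. The Untreated and PDL1 CD4+ effector gates behind this test hold 4 and 9 cells.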

How the results depend on the processing

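The direction of the *Id2* differences, and their call except where stated for NK cells and, with DESeq2, for monocytes (-1.64), held in every alternative run. Counts of called genes moved more. With DESeq2 they were 481 for CD8+ effector against naive, 7 for CD4+ *Id2*-only against *Id3*-only, 291 for NK and 3 for *Gzma*-positive against *S100a4*-only cells. With no filter on low counts they were 120 and 99 for the *Id2*-only against *Id3*-only comparisons in CD8+ and CD4+ T cells. Without the library as replicate block they were 2 for the lineage difference, 6 and 4 for the *Id2*-only comparisons and 2 for the *Gzma* comparison. With ribosomal, mitochondrial and hemoglobin genes kept they were 427 for CD4+ effector against naive and 31 for the CD4+ *Id2*-only comparison, which gave 9 with cells of at most 2900 genes and 47, from the libraries left, without cells of high doublet score. After thinning they were 499, 170, 7, 15 and 5 for CD8+ and CD4+ effector against naive, the lineage difference and the CD8+ and CD4+ *Id2*-only comparisons. Requiring 2 UMIs per gate gave 25 for the lineage difference, and the naive gate alone 0 for the CD8+ *Id2*-only comparison. Leaving out 1 library gave 432 to 896 (CD8+ effector), 111 to 367 (CD4+ effector), 4 to 16 (lineage difference), 17 to 56 and 6 to 22 (*Id2*-only, CD8+ and CD4+), 144 to 314 (NK), 220 to 743 (B), 945 to 1552 (monocyte) and 0 to 17 (*Gzma*).

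Reversals were limited to values near 0. For *Tcf3* the CD8+ effector difference was -0.15 after thinning. Its CD4+ difference was -0.091 with DESeq2, -0.17 unfiltered, -0.025 without the replicate block, -0.12 without high doublet scores, -0.28 with wider gates and -0.37 to 0.19 with 1 library left out, and its *Id2*-only difference was 0.20 unfiltered and -0.17 to 0.079 with 1 library left out. *Id3* in CD4+ cells was 0.15 without Untreated. The causes were not tested. Alternatives were planned except the limit of 3 cells, the naive gate alone, the ratios without 1 cell and the other weights for gate shares, which were added after seeing the data. Depth limits *Id3*, *Id1* and *Tcf4* throughout, and 1 library per treatment leaves treatment and library inseparable.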
